A study of Homo sapiens with 9 samples.

Results

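The genes described here encode the machinery that licenses replication origins, copies DNA at the fork and signals through the kinases ATR and CHK1 when forks stall. They are a list of 59 gene symbols given by name (members), and all 59 were found among the 61155 symbols of the count tables and tested among 17759 genes. RNA of MDA-MB-231, a human breast cancer cell line of basal-like type, was sequenced in 9 libraries. The control group (WT, genotype FBXL12-WT, 3 libraries) had received a scrambled guide RNA. The groups KO1 and KO2 (FBXL12-KO #1 and #2, 3 libraries each) are 2 knockout clones of the same line. FBXL12 encodes an F-box protein, the substrate-binding part of an SCF ubiquitin ligase, and the series title links it to the turnover of FANCD2 and to replication stress. No treatment is named for any group, and neither the guide sequences nor how the clones were isolated is given in the sources used here. Each clone stands for 1 lineage of cells, so a difference between a clone and WT cannot be told apart from other differences of that lineage. Whether the replicates were separate cultures is not stated, and p-values therefore reflect the spread among these libraries, possibly a technical one.

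As background, a cell loads the MCM helicase onto origins in G1 phase with the origin recognition complex, CDC6 and CDT1, while geminin (GMNN) blocks CDT1 once S phase begins. CDC45, the GINS complex and the kinase CDC7-DBF4 then start the helicase, polymerases alpha, delta and epsilon copy the strands, and the PCNA clamp, its RFC loader, FEN1 and LIG1 complete the lagging strand. Bare single-stranded DNA is coated by RPA, which recruits ATR through ATRIP, and TOPBP1 or ETAA1 switches the kinase on. CHK1 then holds back CDC25A and new origins. Many of these genes are known targets of E2F transcription factors and peak near the start of S phase.

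Total counts were 52427841 to 97243363 per library, and the lowest count of any member in any library was 198. FBXL12 (ENSG00000127452.8) had 22.2, 23.3 and 21.3 CPM (read counts relative to the TMM-scaled library size) in WT libraries, 9.56, 9.95 and 9.40 in KO1 and 6.14, 6.36 and 5.33 in KO2. The clone libraries were all below WT but kept FBXL12 RNA, with log2 changes of -1.21 ± 0.08 and -1.91 ± 0.08 (standard error). The mesenchymal and basal markers VIM, CD44, EGFR, MSN, AXL and CAV1 were at group means of 459 to 3330 CPM, and ESR1, PGR and CDH1 were at 0.0917 CPM or less. KRT8 and KRT18 were detected at 343 to 463 CPM, and EPCAM at 0.823 to 4.52. Of 13 markers of leukocytes, endothelium, adipocytes and fibroblasts, COL1A1 was highest at 2.47 to 4.10 CPM, PDGFRB was at 1.18 to 1.84 and the other markers were at 0.625 CPM or less.

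The change in the members was mostly small and mostly downward in KO1, and went both ways in KO2. In KO1, 20 members fell and 3 rose at a Benjamini-Hochberg adjusted p under 0.05 in edgeR's quasi-likelihood test, and 36 did not pass. The members' share called down was 33.9%, against 16.8% of all tested genes, and the share called up was 5.08%, against 18%. In KO2, 14 members fell and 9 rose, which is 23.7% and 15.3% of members against 24.7% of all tested genes in each direction. In either direction 23 members were called in each clone, or 39% of members, where 34.8% of all tested genes were in KO1 and 49.4% in KO2. Members are expressed above the average gene, with a median of 71.9 CPM in WT. Among tested genes with a mean log2 CPM of 4 or more, 22% were called down and 25.9% up in KO1, and 32.3% down and 27.3% up in KO2. The median log2 change of the 59 members was -0.09 in KO1, where that of all tested genes was 0.00, and -0.01 in KO2, where it was -0.01.

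Sizes were modest. Of the 23 members called in each clone, 12 in KO1 and 11 in KO2 changed by under 0.25 on the log2 scale, and 1 (TIPIN in KO2) by 1 or more, with a median standard error of 0.0509 in KO1 and 0.0511 in KO2. Members' CPM summed to 5766 to 5886 in WT, 5349 to 5454 in KO1 and 5638 to 5677 in KO2, so the KO1 libraries lay below all others. Beside this, the summed CPM of 15 mitotic genes was 4172 to 4275 in WT, 4111 to 4278 in KO1 and 4818 to 5052 in KO2. The part of a different cell cycle makeup was not tested, and in bulk RNA fewer cells in S phase and less RNA per cell cannot be told apart. When the trend of each library with gene GC content was removed, 35 members were called down in KO1 and 2 up, against 17.9% and 21.4% of all tested genes, and 18 down and 10 up in KO2, against 25% and 30.1%. The 15 members added to those down in KO1 were ORC2, ORC4, ORC5, GINS1, GINS4, POLA1, POLD1, PRIM1, PRIM2, PCNA, RFC1, RFC3, RPA1, RPA2 and HUS1. Without WT replicate 2 the KO1 count of falling members was 13, where the share of all tested genes called down was 11.1%.

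**Figure D1:**
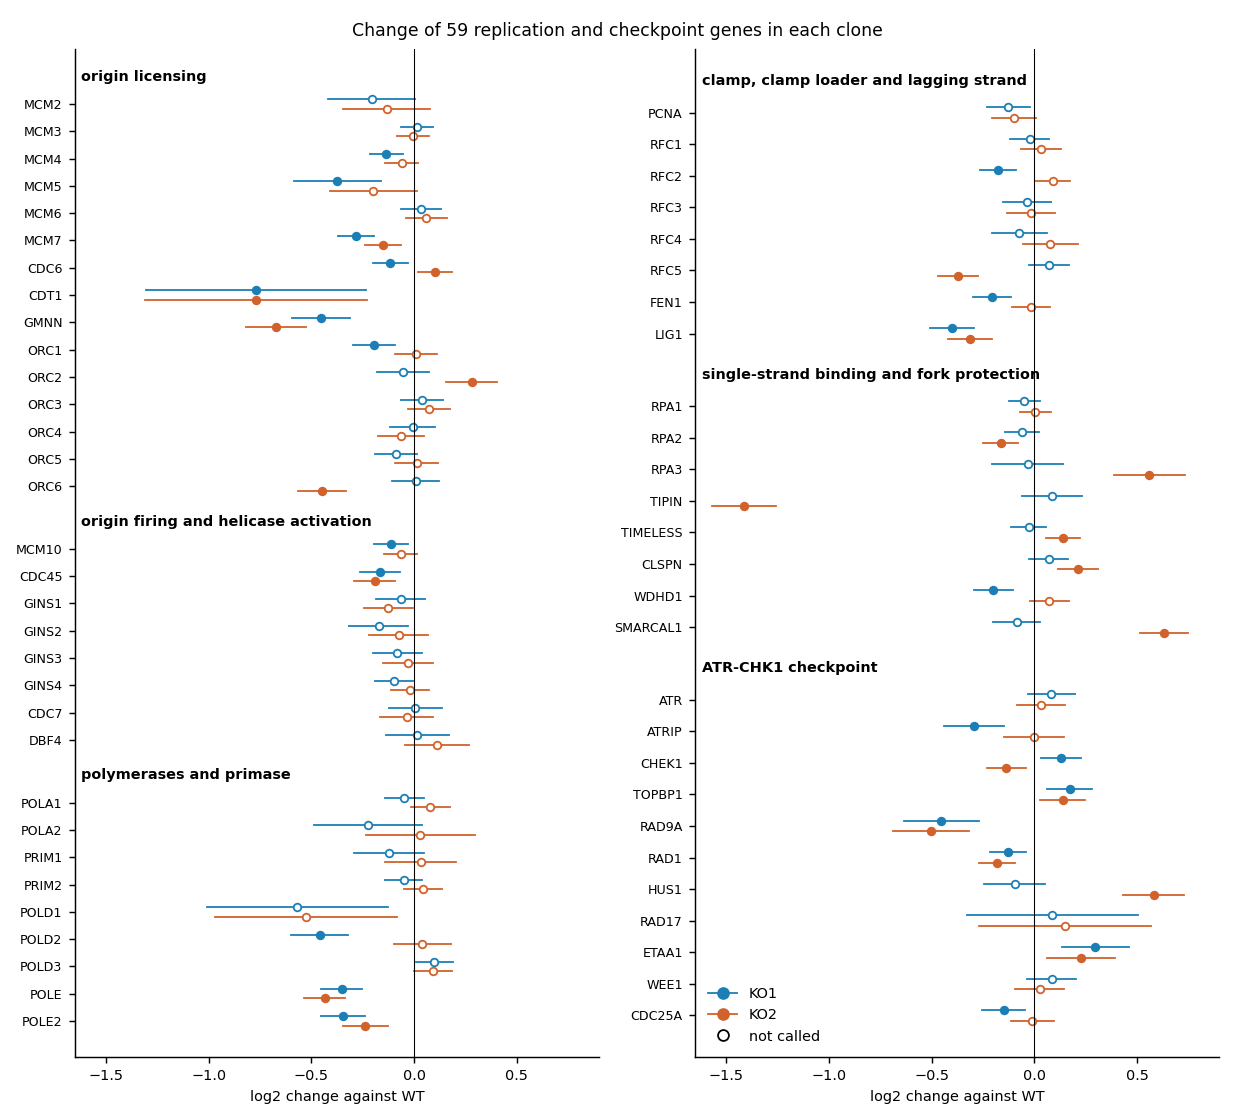
Log2 change of each of the 59 members against WT in KO1 (blue) and KO2 (orange), by role, with 95% intervals from edgeR's quasi-likelihood fit. Filled points passed an adjusted p under 0.05 (23 in each clone). KO1 points lean left, and TIPIN in KO2 stands alone near -1.41.

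In both clones, 9 members fell and 2 rose. The 9 were MCM7, CDT1, GMNN, CDC45, POLE, POLE2, LIG1, RAD9A and RAD1, or 15.3% of members against 7.58% of all tested genes, and the 2 were TOPBP1 and ETAA1, or 3.39% against 7.48%. In all 11 the WT libraries did not overlap those of either clone. Counting libraries alone, 13 members had all 6 clone libraries below all 3 WT libraries (22% of members), where 10.4% of all tested genes did, and 3 had all 6 above (5.08%), where 10.7% did. The further members below were MCM4, MCM10, RPA2 and POLD1, and the further one above was POLD3, all named after their values were seen. Opposite directions were called for CDC6 (down in KO1 and up in KO2, as in 3.02% of all tested genes) and CHEK1 (up in KO1 and down in KO2, as in 4.48%), in all 3.39% of members against 7.51%. In 1 clone only 20 members were called (33.9% against 39.1%). In neither clone were 26 members called (44.1% against 38.4%). The clone contrasts share the WT libraries, so the clones are set side by side here and not counted as independent. Without WT replicate 2, or without KO1 replicate 3, 6 members were called down in both clones (MCM7, GMNN, POLE, POLE2, LIG1 and RAD9A in each case), where 4.45% and 5.16% of all tested genes were. The 2 members that rose in both were not called in both without WT replicate 2 or without KO2 replicate 3, and 1 of them, ETAA1, was without WT replicate 1, WT replicate 3 or KO1 replicate 3, and in DESeq2. CDC6 was no longer called in opposite directions in DESeq2, with no filter on low counts or in fits of only the compared groups, and CHEK1 was not with upper quartile scaling. Both lost the opposite calls with the GC trend removed. Then 14 members were down in both, against 7.11% of all tested genes. These 14 lacked MCM7 and added MCM4, MCM10, ORC4, GINS1, PCNA and RPA2 to the others called down in both.

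**Figure D2:**
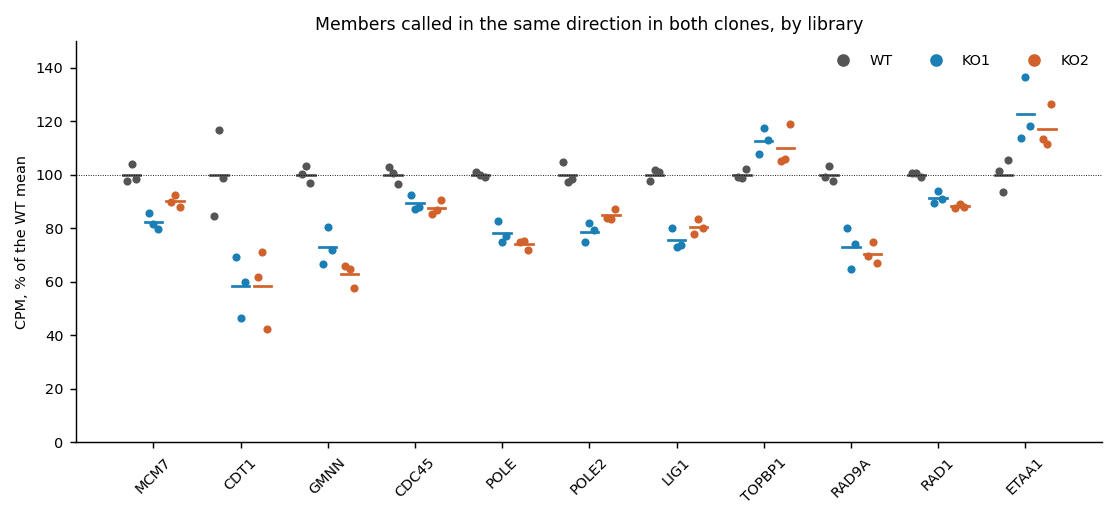
CPM of the 11 members called in the same direction in both clones, each library as a percentage of the WT mean of that gene, with group means as bars and 3 points per group. The clone points of 9 genes lie under all WT points, and those of TOPBP1 and ETAA1 above them. CDT1 has the widest spread within groups.

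Sequences before the RefSeq start of some members that fell in both clones are shown, because the members that fell differ in the E2F letters. Of the 59 members, 51 had an entry in the RefSeq promoter table (GRCh38.p14). The 250 bases before each start were searched on both strands for TTTCCCGC, TTTCGCGC, TTTGCCGC and TTTGGCGC, whose reverse complements are GCGGGAAA, GCGCGAAA, GCGGCAAA and GCGCCAAA. At least 1 match was present in 13 of 51 members (25.5%), where 2.79% of all 27305 promoters in the table held one. Among the 9 members that fell in both clones 4 had a match, which were MCM7, CDT1, POLE and LIG1, and among 23 members with an entry called in neither clone 8 had one. Stretches of 28 bases around matches are given 5′ to 3′ on the gene's strand, with the match in capitals. The first 5 belong to members that fell in both clones, PCNA and MCM6 to members called in neither, and CDC25A to one called in KO1 alone.
MCM7 (chr7:100101567-100101594, minus strand): agctcggaccGCGGGAAAcccggcgcct
MCM7 (chr7:100101398-100101425, minus strand): ggtcacgtggggggcgacgTTTCGCGCc
CDT1 (chr16:88803744-88803771, plus strand): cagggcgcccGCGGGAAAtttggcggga
POLE (chr12:132687343-132687370, minus strand): gggtgggagcGCGCCAAAtttctcccct
LIG1 (chr19:48170441-48170468, minus strand): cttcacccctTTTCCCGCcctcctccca
PCNA (chr20:5126664-5126691, minus strand): agcgtcagggGCGGGAAAaggcgtgcgt
MCM6 (chr2:135876576-135876603, minus strand): gctttgcaTTTGGCGCGAAAtccctttc
CDC25A (chr3:48188444-48188471, minus strand): gtggattccgTTTGGCGCcaactaggaa
In MCM6 the capitals hold overlapping matches on both strands. Like CDC45, POLE2, RAD9A and RAD1, which are not shown, GMNN fell in both clones and had no match in its window. Its bases 120 to 21 before the start, all in lower case for that reason, are given for comparison.
GMNN (chr6:24774817-24774916, plus strand): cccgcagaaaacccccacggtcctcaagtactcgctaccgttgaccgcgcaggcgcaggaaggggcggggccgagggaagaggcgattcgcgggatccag
The letters CCAAT, on either strand, were present in 28 of 51 members (54.9%, against 33% of all promoters) and in 4 of the 9 that fell in both clones. The letters TTTGAA, on either strand, were in none of the 51, against 13.6% of all promoters. These are matches of letters only.

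Among the 15 licensing genes, 7 fell and none rose in KO1, and 4 fell and 2 rose in KO2, with median log2 changes of -0.12 and -0.06. Beside this count and those of the further roles, 16.8% of all tested genes fell and 18% rose in KO1. In KO2 the share was 24.7% in each direction. In KO1, 3 subunits of the MCM ring were called, all downward, and the ring's other 3 subunits were called in neither clone. MCM7 (ENSG00000166508.17, chromosome 7, 100092728 to 100101940, minus strand; GRCh38) encodes one of these subunits and had 418, 445 and 422 CPM in WT libraries, 367, 349 and 342 in KO1 and 385, 396 and 376 in KO2. Both clones lay below WT, KO1 lower than KO2. It fell in KO1 by 0.28 ± 0.04 on the log2 scale (adjusted p = 9e-05, 95% interval -0.37 to -0.19) and in KO2 by 0.15 ± 0.04 (adjusted p = 0.0065, -0.24 to -0.06), but the KO2 value was -0.04 and not called with the GC trend removed, where KO1 was at -0.16. MCM5 was at -0.37 ± 0.09 in KO1 (adjusted p = 0.013) and -0.20 in KO2 (not called, but called in DESeq2, with no filter on low counts, in the fit of only the compared groups and without WT replicate 1 or KO1 replicate 2, at -0.26 to -0.20), and MCM4 at -0.13 ± 0.04 (adjusted p = 0.012) and -0.06 (not called). The KO1 call of MCM4 was lost without WT replicate 2 (-0.12) or WT replicate 3 (-0.11), and MCM5 was at -0.23 in KO1 with the GC trend removed, still called. MCM2, MCM3 and MCM6 had changes of -0.21, 0.02 and 0.03 in KO1 and -0.13, -0.01 and 0.06 in KO2, though MCM2 was called down in both clones with no filter on low counts (-0.20 and -0.14) and in KO1 without WT replicate 1 (-0.26). With the GC trend removed MCM2 was at -0.04 in KO1 and 0.04 in KO2, and MCM5 at -0.04 in KO2, none called. In that fit MCM4 was called down in KO2 (-0.08). Mean CPM in WT was 429 for MCM7, 332 for MCM3, 314 for MCM4, 141 for MCM6, 132 for MCM5 and 98.5 for MCM2. Levels per kb divide by the length of all annotated exons, 3650 bases for MCM3 and 7338 for MCM5. Gaps and order between genes therefore depend in part on that annotation. Per kb of exon, the level in WT was 97.7 ± 3.33 CPM for MCM7 (SD, n = 3), 91.04 ± 0.427 for MCM3, 45.1 ± 1.05 for MCM4, 34.3 ± 0.638 for MCM6, 20.1 ± 1.99 for MCM2 and 17.99 ± 1.74 for MCM5, of which MCM2 and MCM5 overlapped in their libraries.

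CDT1 and its inhibitor fell together in each clone. CDT1 (ENSG00000167513.8, chromosome 16, 88803213 to 88809258, plus strand) had 19.9, 27.4 and 23.3 CPM in WT libraries, 16.2, 10.96 and 14.1 in KO1 and 14.5, 16.7 and 9.98 in KO2. All 6 clone libraries were below WT, but the libraries of each group lay far apart. It fell in KO1 by 0.77 ± 0.23 (adjusted p = 0.035, interval -1.30 to -0.24) and in KO2 by 0.77 ± 0.23 (adjusted p = 0.026, -1.31 to -0.23). The KO1 call was lost without KO1 replicate 2 (-0.62) or 3 (-0.77), WT replicate 2 (-0.63) or 3 (-0.76), or KO2 replicate 1 (-0.77), and the KO2 call without WT replicate 2 (-0.65), WT replicate 3 (-0.78) or KO2 replicate 1 (-0.82). With no filter on low counts neither was called (-0.76 and -0.78). With the GC trend removed CDT1 was at -0.40 and -0.30, both called. GMNN, which encodes geminin (ENSG00000112312.9, chromosome 6, 24774931 to 24786099, plus strand), had 82.8, 85.4 and 79.99 CPM in WT libraries, 55.1, 66.7 and 59.6 in KO1 and 54.5, 53.6 and 47.8 in KO2. Each WT library was above every clone library, and each KO2 library was below every KO1 library. It fell by 0.45 ± 0.07 in KO1 (adjusted p = 0.00012) and by 0.67 ± 0.07 in KO2 (adjusted p = 1.2e-06), and the clones differed by 0.22 ± 0.07 (KO1 minus KO2, adjusted p = 0.014). That difference was 0.16 and not called without KO2 replicate 3, whereas the calls against WT held in all settings tried. Per kb, the ratio of GMNN to CDT1 was 4.82 ± 0.725 in WT, 6.16 ± 1.86 in KO1 and 5.27 ± 1.09 in KO2 (SD, n = 3), so the groups overlapped.

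CDC6, the loading factor that works with CDT1, was called in opposite directions by a small margin. CDC6 (ENSG00000094804.10, chromosome 17, 40287633 to 40304657, plus strand) had 193, 196 and 193 CPM in WT libraries, 175, 187 and 176 in KO1 and 208, 204 and 213 in KO2. The KO1 libraries were all below WT and the KO2 libraries all above, by margins close to the spread within a group. The log2 changes were -0.11 ± 0.04 (adjusted p = 0.035) and 0.10 ± 0.04 (adjusted p = 0.044), and the clones differed by -0.22 ± 0.04 (adjusted p = 0.00029). The KO1 call was lost without any of WT replicates 1 to 3, KO1 replicates 1 or 3, or KO2 replicates 1 or 2 (-0.11 to -0.08), and the KO2 call without any of WT replicates 1 to 3, KO1 replicate 3, or KO2 replicates 1 to 3 (0.08 to 0.11) or with the GC trend removed (0.06). With all libraries kept, both calls were lost in DESeq2 (adjusted p = 0.055 and 0.06) and with no filter on low counts (0.11 and 0.16), the KO1 call in the fit of only the compared groups (0.064) and the KO2 call with a replicate block (0.057). Subunits of the origin recognition complex, which marks origins, differed by clone. ORC6 (ENSG00000091651.8, chromosome 16, 46689643 to 46698394, plus strand) had 47.01, 47.1 and 43.6 CPM in WT libraries, 44.8, 46.8 and 46.9 in KO1 and 32.7, 32.6 and 35.6 in KO2. KO1 overlapped WT and KO2 lay below both, and it fell in KO2 by 0.45 ± 0.05 (adjusted p = 6.2e-06; KO1 0.01). ORC2 (ENSG00000115942.8, chromosome 2, 200908973 to 200963680, minus strand) had 44.7, 42.6 and 46.1 CPM in WT libraries, 40.2, 45.7 and 42.7 in KO1 and 51.8, 52.97 and 57.3 in KO2. KO2 was above all other libraries. It rose there by 0.28 ± 0.06 (adjusted p = 0.00098), with KO1 at -0.05. ORC1 fell in KO1 (-0.19 ± 0.05, adjusted p = 0.0055; KO2 0.01), and ORC3, ORC4 and ORC5 were within -0.09 to 0.07 in both clones and not called. With the GC trend removed ORC4 was called down in both clones (-0.10 in KO1 and -0.11 in KO2) and ORC5 in KO1 (-0.17). Per kb, the ratio of ORC6 to ORC1 was 0.819 ± 0.0138 in WT, 0.943 ± 0.016 in KO1 and 0.597 ± 0.0363 in KO2 (SD, n = 3).

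**Figure D3:**
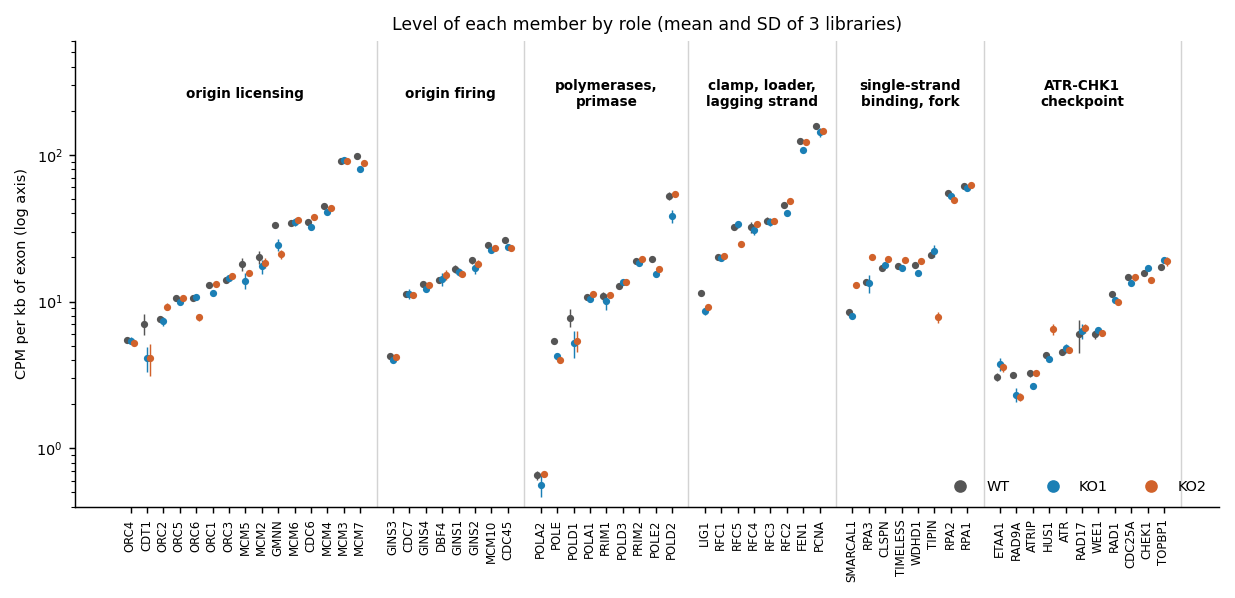
Level of each member as CPM per kb of exon (log axis), mean and SD of 3 libraries, in WT (grey), KO1 (blue) and KO2 (orange), by role and ordered by WT. Levels run from 0.656 for POLA2 to 156 for PCNA in WT, and for most members the groups lie close together on this range.

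Of 8 origin firing genes, 2 fell in KO1 and 1 in KO2, and none rose. None was called in KO1 against KO2. CDC45 (ENSG00000093009.9, chromosome 22, 19479459 to 19520612, plus strand), which joins the MCM ring in the active helicase, had 77.4, 75.7 and 72.5 CPM in WT libraries, 69.6, 65.6 and 66.1 in KO1 and 64.2, 65.3 and 68.1 in KO2. WT was above both clones, which overlapped each other. It fell by 0.16 ± 0.05 in KO1 (adjusted p = 0.012) and 0.19 ± 0.05 in KO2 (adjusted p = 0.003). The KO1 call was lost without WT replicate 1 (-0.13), WT replicate 2 (-0.15) or KO1 replicate 3 (-0.14). MCM10, a loading factor for CDC45, fell in KO1 (-0.11 ± 0.04, adjusted p = 0.034; KO2 -0.07), and lost that call without any 1 of WT replicates 1 to 3, KO1 replicates 1 or 3 or KO2 replicates 1 or 2 (-0.11 to -0.08), with no filter on low counts (-0.10) or in the fit of only the compared groups (-0.11). The GINS subunit genes ranged from -0.17 (GINS2) to -0.06 (GINS1) in KO1 and -0.12 (GINS1) to -0.02 (GINS4) in KO2 without a call, though GINS2 was called down in KO1 without KO1 replicate 2 (-0.23) or KO2 replicate 3 (-0.18) and GINS1 in KO2 without KO1 replicate 2 (-0.13). The kinase gene CDC7 was at 0.01 and -0.04 and its activator DBF4 at 0.02 and 0.11, with intervals for DBF4 of -0.14 to 0.17 and -0.04 to 0.27.

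Of 9 polymerase and primase genes, 3 fell in KO1 and 2 in KO2, and none rose. POLE and POLE2, the members that encode subunits of polymerase epsilon, the leading strand enzyme, both fell in both clones. POLE (ENSG00000177084.16, chromosome 12, 132623753 to 132687365, minus strand), the catalytic subunit, had 90.6, 89.7 and 88.7 CPM in WT libraries, 74.2, 67.2 and 69.3 in KO1 and 66.96, 67.6 and 64.5 in KO2. WT libraries were within 2 CPM of each other and above all clone libraries. It fell in KO1 by 0.35 ± 0.05 (adjusted p = 3.3e-05, interval -0.45 to -0.25) and in KO2 by 0.43 ± 0.05 (adjusted p = 1.7e-06, -0.53 to -0.34). POLE2 (ENSG00000100479.12, chromosome 14, 49643555 to 49688422, minus strand), its second subunit, had 60.4, 56.1 and 56.8 CPM in WT libraries, 43.2, 47.4 and 45.8 in KO1 and 48.5, 48.2 and 50.4 in KO2. KO1 was lowest, then KO2, then WT, without overlap. It fell by 0.35 ± 0.05 (adjusted p = 9.5e-05) and 0.24 ± 0.05 (adjusted p = 0.0012). Both genes kept their calls in both clones in all settings tried. The delta subunit gene POLD2 (ENSG00000106628.10, chromosome 7, 44114681 to 44124358, minus strand) had 185, 206 and 189.9 CPM in WT libraries, 155, 128 and 140.4 in KO1 and 201, 207 and 189.9 in KO2. KO1 was below the rest and KO2 overlapped WT, and it fell in KO1 by 0.46 ± 0.06 (adjusted p = 0.00012; KO2 0.04). With the GC trend removed POLD2 was at -0.28 in KO1 and was called up in KO2 (0.24).

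The catalytic delta subunit gene POLD1 was lower in all 6 clone libraries but varied widely. Its changes were -0.57 ± 0.19 in KO1 (interval -1.01 to -0.13) and -0.53 ± 0.19 in KO2 (-0.97 to -0.08), each with an adjusted p of 0.052, just over the threshold. Other settings called it down in both clones, which were DESeq2 (adjusted p = 0.015 and 0.018), the filter of 1 CPM in 3 libraries (0.032 and 0.037), the fit of only the compared groups (0.04 and 0.033) and the fit without KO1 replicate 1 (0.022 and 0.031). In KO1 limma-voom (0.043), removal of the GC trend (-0.21, adjusted p = 0.0016) and the fit without KO2 replicate 3 did so too, and in KO2 those without KO1 replicate 2, KO2 replicate 2 or WT replicate 1. With the GC trend removed POLD1 was at -0.07 in KO2 and not called. The average over both clones was called down. That call was lost with no filter on low counts (-0.55) or without KO1 replicate 3 (-0.54), WT replicate 2 (-0.44) or WT replicate 3 (-0.56). POLD3 was at 0.10 and 0.09, called up in KO1 without WT replicate 3 (0.14) and in KO2 with upper quartile scaling (0.13) or the filter of 1 CPM in 3 libraries (0.10). The primase and polymerase alpha genes POLA1, POLA2, PRIM1 and PRIM2, which lay down primers, ranged from -0.22 to -0.05 in KO1 and from 0.03 to 0.08 in KO2, none called. POLA1, PRIM1 and PRIM2 were called down in KO1 with the GC trend removed (-0.12, -0.21 and -0.14), PRIM1 without KO1 replicate 2 (-0.22) and POLA2 without KO1 replicate 1 (-0.35), while POLA1 was called up in KO2 with upper quartile scaling (0.12). POLA2 had the lowest level of all members, 0.656 ± 0.0465 CPM per kb in WT (SD, n = 3) against 10.7 ± 0.308 for POLA1.

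Of 8 genes for the clamp, its loader and lagging strand maturation, 3 fell in KO1 and 2 in KO2, and none rose. LIG1, the ligase that seals Okazaki fragments (ENSG00000105486.13, chromosome 19, 48115445 to 48170603, minus strand), had 72.97, 76.04 and 75.5 CPM in WT libraries, 60.02, 54.5 and 55.3 in KO1 and 58.1, 62.4 and 59.96 in KO2. The WT libraries lay above all clone libraries, and the clones overlapped. It fell by 0.40 ± 0.05 in KO1 (adjusted p = 1.9e-05) and 0.31 ± 0.05 in KO2 (adjusted p = 8.7e-05), called in all settings tried, with -0.23 and -0.13 when the GC trend was removed. FEN1, the nuclease that trims the flap before ligation, fell in KO1 (-0.21 ± 0.04, adjusted p = 0.0017; KO2 -0.02) and was at -0.13 with the GC trend removed. PCNA, the clamp itself and the most abundant member per kb, was at -0.13 ± 0.05 in KO1 (interval -0.23 to -0.02) and -0.10 ± 0.05 in KO2 (-0.21 to 0.01), not called. With the GC trend removed it was called down in both (-0.18, adjusted p = 0.00081, and -0.14, adjusted p = 0.0036), as it was without KO1 replicate 2 (-0.18 and -0.11), and the average over both clones was called down. In KO1 the filter of 1 CPM in 3 libraries and the fit without KO2 replicate 3 called it too (-0.13 each), and in KO2 the fit of only the compared groups (-0.10). The call of PCNA in the average over both clones was lost in DESeq2 (-0.11) and with upper quartile scaling (-0.09). That call was also lost without any 1 library other than KO1 replicate 2 (-0.12 to -0.08). The loader subunit gene RFC5 (ENSG00000111445.13, chromosome 12, 118013588 to 118033130, plus strand) had 107, 103 and 103 CPM in WT libraries, 104, 116 and 108 in KO1 and 79.03, 81.01 and 81.3 in KO2. KO2 was below all other libraries, while KO1 overlapped WT. It fell in KO2 by 0.37 ± 0.05 (adjusted p = 8e-06; KO1 0.07). RFC2 fell in KO1 (-0.18 ± 0.04, adjusted p = 0.0034) and was at 0.09 in KO2, where it was called up with the GC trend removed (0.11), with upper quartile scaling (0.13) and with the filter of 1 CPM in 3 libraries (0.10), while RFC1, RFC3 and RFC4 were within -0.07 to 0.08 in both clones. Exons of RFC5 overlap those of WSB2 on the opposite strand over 5.72% of their length, and WSB2 had 15583 counts per library against 7170 for RFC5. The sources used here do not give the strand setting of the counting, so reads in such shared stretches are uncertain.

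Of 8 fork protection genes, 1 fell in KO1, and in KO2 4 rose and 2 fell. They include TIPIN, which had the largest change of any member in KO2. TIPIN (ENSG00000075131.9, chromosome 15, 66336206 to 66386746, minus strand), which holds TIMELESS and claspin at the fork and helps CHK1 activation, had 59.4, 57.7 and 56.00 CPM in WT libraries, 57.1, 67.9 and 58.7 in KO1 and 19.9, 21.4 and 23.6 in KO2. KO1 overlapped WT, and the KO2 libraries were far below all others. It fell in KO2 by 1.41 ± 0.07 (interval -1.57 to -1.26, adjusted p = 7.2e-10), to 37.6% of WT, with KO1 at 0.09 ± 0.07. Its partner TIMELESS rose in KO2 by 0.14 ± 0.04 (adjusted p = 0.0088; KO1 -0.03), a call lost without KO2 replicate 1 (0.12). Per kb, the ratio of TIPIN to TIMELESS was 1.20 ± 0.0533 in WT, 1.30 ± 0.153 in KO1 and 0.410 ± 0.0367 in KO2 (SD, n = 3).

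SMARCAL1 (ENSG00000138375.12, chromosome 2, 216412414 to 216483053, plus strand), an annealing helicase that RPA brings to stalled forks, had 40.8, 45.3 and 43.1 CPM in WT libraries, 41.7, 38.99 and 40.9 in KO1 and 63.3, 67.2 and 69.3 in KO2. KO2 stood above all other libraries, and KO1 overlapped WT. It rose in KO2 by 0.63 ± 0.05 (adjusted p = 1.6e-07), with KO1 at -0.09. RPA3 (ENSG00000106399.11, chromosome 7, 7636518 to 7718607, minus strand), the smallest subunit of RPA, had 46.5, 43.4 and 42.5 CPM in WT libraries, 38.7, 49.98 and 40.9 in KO1 and 66.2, 66.3 and 62.6 in KO2. Here too KO2 was above the rest, by 0.56 ± 0.08 (adjusted p = 7.1e-05; KO1 -0.03). The other subunits did not rise with it. RPA2 fell in KO2 (-0.17 ± 0.04, adjusted p = 0.0025) and RPA1 was at 0.00, so that the per-kb ratio of RPA3 to RPA1 was 0.221 ± 0.0119 in WT, 0.223 ± 0.0276 in KO1 and 0.325 ± 0.00819 in KO2 (SD, n = 3). CLSPN (ENSG00000092853.13, chromosome 1, 35720218 to 35769967, minus strand) encodes claspin, which bridges ATR and CHK1, and had 88.3, 89.8 and 95.3 CPM in WT libraries, 91.3, 97.5 and 97.8 in KO1 and 107, 104 and 106 in KO2. All KO2 libraries were above WT, and it rose there by 0.21 ± 0.05 (adjusted p = 0.0011; KO1 0.07). WDHD1, which couples the helicase to polymerase alpha, fell in KO1 (-0.20 ± 0.04, adjusted p = 0.0026; KO2 0.07).

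Of 11 checkpoint genes, 3 rose and 4 fell in KO1, and 3 rose and 3 fell in KO2. ATR (ENSG00000175054.14, chromosome 3, 142449235 to 142578826, minus strand) had 57.1, 56.6 and 56.9 CPM in WT libraries, 55.6, 63.7 and 61.3 in KO1 and 56.5, 56.96 and 60.98 in KO2. The groups overlapped, and its changes of 0.08 ± 0.05 (interval -0.03 to 0.20) and 0.03 ± 0.05 (-0.08 to 0.15) were not called, though KO1 was at 0.15 and called without KO1 replicate 1. ATRIP (ENSG00000164053.20, chromosome 3, 48446710 to 48467645, plus strand), its obligate partner, had 17.3, 18.7 and 16.9 CPM in WT libraries, 15.1, 14.2 and 13.9 in KO1 and 17.9, 18.2 and 16.7 in KO2. KO1 was below the other groups, which overlapped. It fell in KO1 by 0.29 ± 0.07 (adjusted p = 0.0039; -0.19 with the GC trend removed) and was at -0.00 in KO2. The ratio of ATRIP to ATR per kb was 0.714 ± 0.0406 in WT, 0.553 ± 0.063 in KO1 and 0.699 ± 0.0587 in KO2 (SD, n = 3).

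The genes of both ATR activators rose in both clones. TOPBP1 (ENSG00000163781.13, chromosome 3, 133598175 to 133662380, minus strand) had 124, 123 and 128 CPM in WT libraries, 134, 147 and 141 in KO1 and 131, 132 and 148 in KO2. WT was lowest, with KO2 replicates 1 and 2 close above it. It rose by 0.17 ± 0.05 in KO1 (adjusted p = 0.016) and 0.14 ± 0.05 in KO2 (adjusted p = 0.036), or 0.10 and 0.09 with the GC trend removed. ETAA1 (ENSG00000143971.8, chromosome 2, 67397319 to 67412089, plus strand), the activator that RPA recruits, had 23.2, 21.4 and 24.1 CPM in WT libraries, 26.02, 31.3 and 27.05 in KO1 and 25.99, 25.5 and 28.98 in KO2. The clones overlapped each other above WT. It rose by 0.30 ± 0.08 (adjusted p = 0.0076; 0.19 with the GC trend removed) and 0.23 ± 0.08 (adjusted p = 0.023). KO2 calls were lost for TOPBP1 without WT replicate 1 (0.14), WT replicate 2 (0.13), WT replicate 3 (0.15), KO1 replicate 3 (0.14) or KO2 replicate 3 (0.07) and, with all libraries kept, in DESeq2 (0.14, adjusted p = 0.052), and for ETAA1 without WT replicate 2 (0.18) or KO2 replicate 3 (0.16). The KO1 calls of both genes held in all settings tried.

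The checkpoint clamp that flags gapped DNA is built from RAD9A, RAD1 and HUS1, and its genes did not move together. RAD9A (ENSG00000172613.7, chromosome 11, 67317871 to 67398410, plus strand) had 13.1, 13.7 and 12.9 CPM in WT libraries, 10.6, 8.58 and 9.80 in KO1 and 9.22, 9.90 and 8.88 in KO2. All clone libraries were below WT. It fell by 0.45 ± 0.09 (adjusted p = 0.0008) and 0.50 ± 0.09 (adjusted p = 0.00019), or -0.20 and -0.19 with the GC trend removed, called in all settings tried. RAD1 (ENSG00000113456.18, chromosome 5, 34905264 to 34918989, minus strand) had 76.2, 76.1 and 75.1 CPM in WT libraries, 67.7, 71.3 and 68.9 in KO1 and 66.3, 67.6 and 66.6 in KO2. WT was above both clones by a margin larger than the spread within WT. It fell by 0.13 ± 0.04 (adjusted p = 0.025) and 0.18 ± 0.04 (adjusted p = 0.002), and the KO1 call was lost without any of WT replicates 1 to 3 (-0.12 to -0.11), KO1 replicate 1 (-0.10) or KO1 replicate 3 (-0.11), or with no filter on low counts (-0.12). HUS1 (ENSG00000136273.12, chromosome 7, 47963288 to 47979553, minus strand) had 18.1, 18.5 and 16.8 CPM in WT libraries, 16.5, 17.1 and 16.4 in KO1 and 26.6, 24.4 and 28.9 in KO2. KO2 was above all other libraries. It rose there by 0.58 ± 0.07 (adjusted p = 5.7e-06) with KO1 at -0.10, and the per-kb ratio of HUS1 to RAD1 was 0.388 ± 0.0165 in WT, 0.397 ± 0.00435 in KO1 and 0.658 ± 0.0595 in KO2 (SD, n = 3). Exons of RAD9A overlap PPP1CA, which had 16794 counts per library against 777 for RAD9A, over 5.47% of their length on the opposite strand, and those of RAD1 overlap BRIX1 over 7.12%. RAD17, which loads this clamp, was at 0.09 ± 0.18 and 0.15 ± 0.18, with the widest libraries in WT (18.6, 30.9 and 25.05 CPM).

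The effector kinase gene went opposite ways in the clones. CHEK1 (ENSG00000149554.12, chromosome 11, 125625136 to 125676255, plus strand), which encodes CHK1, had 99.8, 99.9 and 106 CPM in WT libraries, 107, 112 and 115 in KO1 and 92.9, 90.3 and 95.1 in KO2. KO1 lay above WT and KO2 below it. The changes were 0.13 ± 0.04 in KO1 (adjusted p = 0.036) and -0.14 ± 0.05 in KO2 (adjusted p = 0.02), and the clones differed by 0.27 ± 0.04 (adjusted p = 0.00014). The KO1 call was lost with the GC trend removed (0.06) and without WT replicates 1 or 2 or KO2 replicate 1 (0.13 each), KO1 replicate 2 (0.13) or KO1 replicate 3 (0.12), and the KO2 call without KO2 replicate 2 (-0.12) or WT replicate 3 (-0.11), or under upper quartile scaling (-0.10). WEE1 (ENSG00000166483.10, chromosome 11, 9573681 to 9593457, plus strand), the kinase that restrains CDK1 and CDK2, had 53.8, 52.8 and 59.7 CPM in WT libraries, 56.7, 60.5 and 59.1 in KO1 and 55.4, 54.5 and 59.3 in KO2. The groups overlapped, with changes of 0.08 ± 0.06 (interval -0.03 to 0.20) and 0.03 ± 0.06 (-0.09 to 0.14), not called. CDC25A (ENSG00000164045.11, chromosome 3, 48157146 to 48188402, minus strand), the phosphatase that CHK1 restrains, had 60.2, 62.5 and 59.8 CPM in WT libraries, 53.6, 55.1 and 55.8 in KO1 and 63.4, 60.7 and 57.1 in KO2. KO1 was below WT and KO2 overlapped it. It fell in KO1 by 0.15 ± 0.05 (adjusted p = 0.027; KO2 -0.01), a call lost without KO1 replicate 1 (-0.12) or 3 (-0.15), or WT replicate 1 (-0.14), 2 (-0.12) or 3 (-0.15), or with no filter on low counts (-0.14).

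Some members that moved in 1 clone lay among genes that moved with them, and others did not. For each member the median log2 change of its 20 nearest neighbours on the chromosome was taken (10 each side, protein-coding, mean log2 CPM of at least 2). Of 10 members called in KO1 alone, this median was on the member's side of 0 in 7, and by at least 0.1 in 4. Of 10 called in KO2 alone it was so in 9, and by at least 0.1 in 7. Among all genes of that pool called in 1 clone alone, the shares were 80.3% and 47.3% in KO1 and 70.9% and 44.2% in KO2, so no more of the KO1 members than of genes at large were on their neighbours' side. MCM4, MCM5 and ORC1 fell in KO1 where neighbours were at 0.11, 0.04 and 0.01, and TIMELESS rose in KO2 where they were at -0.00. Around TIPIN on chromosome 15 all 20 neighbours, over 3.13 Mb, were below 0 in KO2, 14 of them below -1, with a median of -1.28 beside -1.41 for TIPIN. In KO1 their median was 0.18. Around SMARCAL1 and ORC2, both on chromosome 2, all 20 neighbours were above 0 in KO2, with medians of 0.59 and 0.56. On chromosome 7, 18 of 20 neighbours of RPA3, 19 of HUS1 and 19 of POLD2 were above 0 in KO2, with medians of 0.30, 0.30 and 0.37, and the POLD2 neighbours were at -0.25 in KO1. These sets spanned 10.2, 11.4 and 2.08 Mb, and those of HUS1 and POLD2 had genes in common, such as OGDH and CCM2. RFC5 had neighbours at -0.28 and ORC6 at -0.13 in KO2. The neighbours of CHEK1 were at 0.23 in KO1 and -0.32 in KO2, on the same sides as CHEK1 itself.

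**Figure D4:**
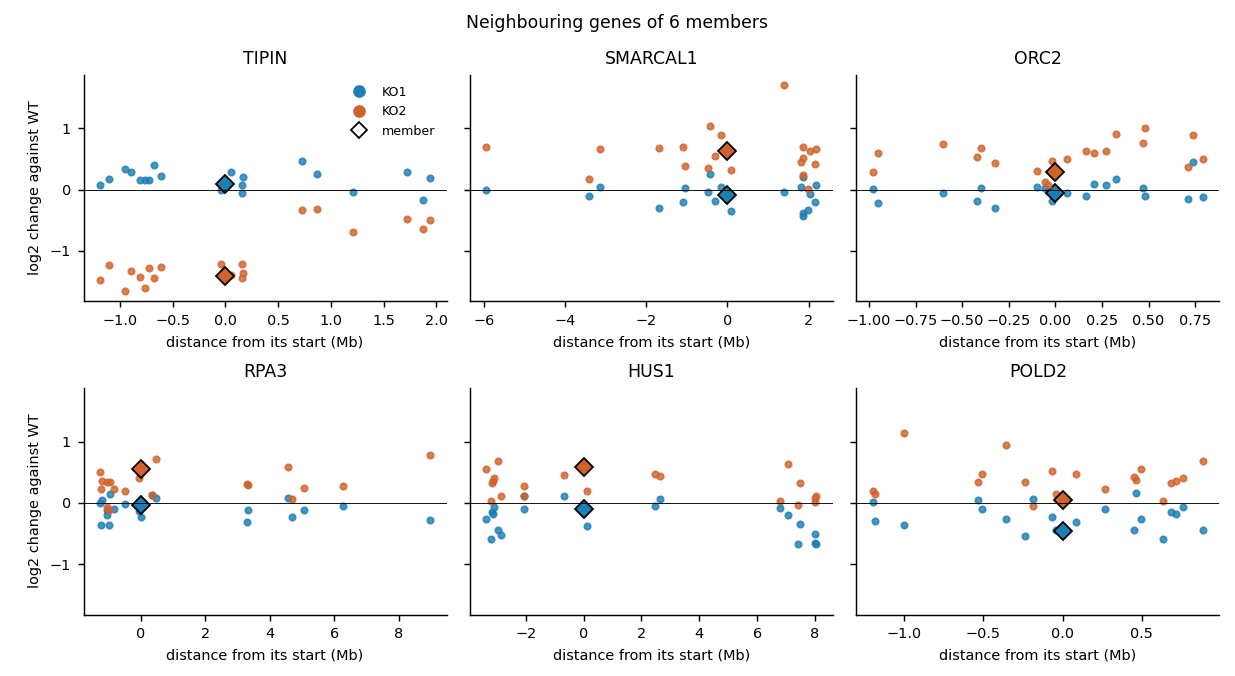
Log2 change against WT of the 20 neighbours (points) of 6 members (diamonds) by distance from the member's start in Mb, in KO1 (blue) and KO2 (orange). Around TIPIN the KO2 points lie below -1 up to about the member and closer to 0 beyond it, and around SMARCAL1 and ORC2 they lie above 0.

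Members that fell in both clones differed in this respect. POLE stood apart from its neighbours, whose medians were -0.08 in KO1 and -0.03 in KO2 beside -0.35 and -0.43. GMNN was lower than neighbours that were themselves at -0.10 and -0.33. RAD1 fell where its neighbours were at 0.12 and -0.01, and MCM7 where they were at -0.04 and -0.12. CDC45 and its neighbours were alike, at -0.16 and -0.22 for the neighbours, and those of CDT1 (-0.34 and -0.39), LIG1 (-0.19 and -0.24) and RAD9A (-0.25 and -0.31) were lower too, as were those of POLE2 in KO1 (-0.26) but not in KO2 (0.01). With the GC trend removed the medians around LIG1 were 0.07 and 0.04, around RAD9A 0.02 and -0.03 and around CDC45 0.01 and -0.11, so some changed sign. Of the members that rose in both clones, ETAA1 (0.30 and 0.23) had neighbours at 0.16 in KO1 and 0.20 in KO2. Of these 20 neighbours, 18 in KO1 and 15 in KO2 were above 0. The neighbours of TOPBP1 (0.17 and 0.14) were at 0.13 and -0.02. Across the 59 members the change of a member and the median of its neighbours had a Pearson r of 0.733 in KO1 and 0.836 in KO2 (Spearman 0.712 and 0.645), and 0.744 in KO2 without TIPIN. The same over 9986 genes gave 0.508 and 0.549. These are descriptions across genes, which share libraries, GC content and, for near neighbours, each other. With the GC trend removed r was 0.591 and 0.881 (Spearman 0.429 and 0.563). In that fit 28 of the 59 members in KO1 and 34 in KO2 were on their neighbours' side of 0, where 43 and 42 were before. Whether gain or loss of chromosome segments in a clone has a part in these values was not tested.

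**Figure D5:**
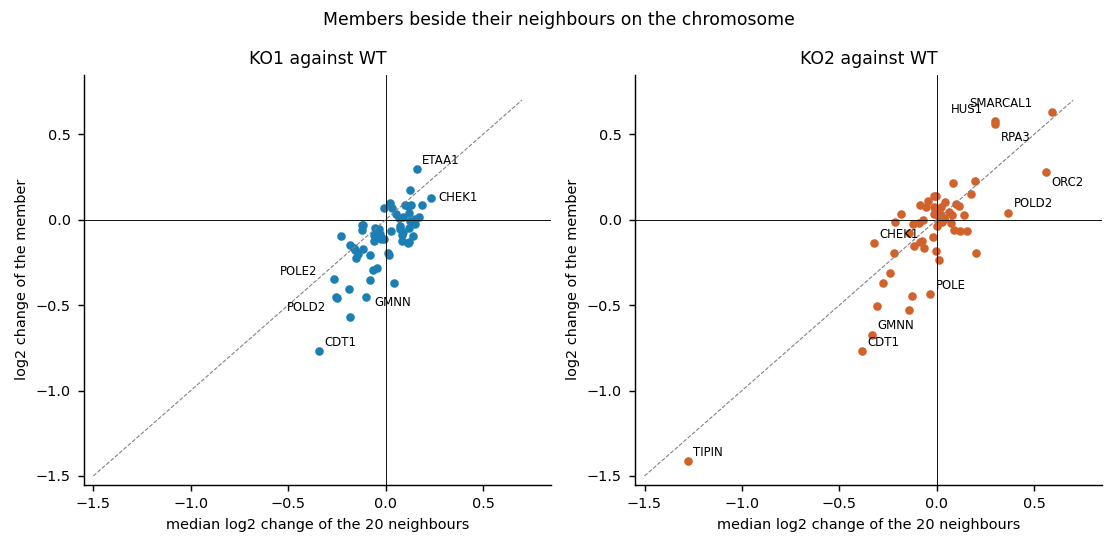
Log2 change of each of the 59 members (vertical) against the median log2 change of its 20 neighbours (horizontal) in KO1 and KO2, with a dashed line of equality. TIPIN in KO2 lies at the lower left with its neighbours, and POLE lies below neighbours near 0.

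Set directly against each other, the clones differed in 22 members, 6 higher and 16 lower in KO1, which is 37.3% of members against 48.9% of all tested genes (23.9% higher and 24.9% lower). The members furthest apart were TIPIN (KO1 minus KO2, 1.499 ± 0.07), SMARCAL1 (-0.72 ± 0.05), HUS1 (-0.68 ± 0.07), RPA3 (-0.59 ± 0.08) and POLD2 (-0.50 ± 0.06). With the GC trend removed 27 members were lower and 7 higher in KO1, against 30.1% and 26.5% of all tested genes. Averaged over both clones, 20 members fell and 6 rose against WT (20.4% of all tested genes in each direction), and 11 fell without WT replicate 2, where 14.2% of all tested genes did. The average can rest on 1 clone, and the spread between clones does not enter its test. TIPIN was at -0.66 in the average with KO1 at 0.09, and SMARCAL1 at 0.27 with KO1 at -0.09. Tested clone by clone, 9 members were called down and 2 up in both. With the GC trend removed 25 fell and 7 rose in that average, against 20.9% and 24.8%.

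Genes of the same pathways outside the 59 were described from fixed lists, and the neighbours of these genes on the chromosome were not taken. Beside the counts of each list, 16.8% of all tested genes fell and 18% rose in KO1. In KO2 the share was 24.7% in each direction. Of 32 other replisome and origin factors, 9 fell and 1 rose in KO1, and 8 fell and 7 rose in KO2. DNMT1, the maintenance DNA methyltransferase that follows the fork, was at 527 ± 27.3 CPM in WT against 411 ± 17.9 in KO1 and 306 ± 12.3 in KO2 (SD, n = 3), a fall of 0.36 ± 0.05 and 0.79 ± 0.05 without overlap (adjusted p = 3.5e-05 and 3.8e-09). TOP1, the topoisomerase that relaxes DNA ahead of the fork, rose in both clones (0.25 ± 0.04 and 0.21 ± 0.04), and TICRR, the origin firing factor treslin, fell in KO2 (-0.51 ± 0.05; KO1 -0.05). Of 21 fork remodelling and checkpoint partners, 5 fell and 3 rose in KO1, and 9 fell and 5 rose in KO2. TOP3A, the topoisomerase of the BLM complex, fell in both (-0.20 ± 0.05 and -0.26 ± 0.05), its partner RMI1 rose in KO2 (0.55 ± 0.06; KO1 0.08), and RAD18, the ligase that ubiquitinates PCNA, fell in KO2 (-0.71 ± 0.05; KO1 0.07).

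Of 15 genes of the ubiquitin ligases that control licensing, 5 fell and 2 rose in KO1, and 3 fell and 2 rose in KO2. The scaffold genes CUL4A and CUL4B, which serve the ligase that destroys CDT1, were at 0.25 ± 0.04 and 0.32 ± 0.05 in KO1, both called up, and at 0.03 ± 0.04 (not called) and -0.66 ± 0.05 (called down) in KO2, while the deubiquitinase gene USP37 rose in KO2 (0.63 ± 0.06; KO1 -0.07). USP37 is among the 20 neighbours of SMARCAL1, a set with a median of 0.59 in KO2. Of 12 deoxynucleotide supply genes, 4 rose and 2 fell in KO1, and 7 rose and 2 fell in KO2. SAMHD1, which degrades deoxynucleotides, rose by 0.26 ± 0.04 and 0.13 ± 0.04, CTPS1, which makes CTP, by 0.17 ± 0.04 and 0.18 ± 0.04, and RRM2B, a ribonucleotide reductase subunit, in KO2 (0.34 ± 0.07; KO1 0.14, not called). Of 17 E2F and RB family genes, 6 fell and 3 rose in KO1, and 5 fell and 7 rose in KO2. The activator E2F3 fell by 0.22 ± 0.05 and 0.34 ± 0.05 and the repressor E2F4 by 0.25 ± 0.07 and 0.40 ± 0.07. E2F3 is one of the 20 genes taken as neighbours of GMNN. In KO2 the median log2 change of that set was -0.33, and 18 of its genes were below 0. In KO1 the set was at -0.10, and 12 of its genes were below 0. MYBL2 fell in KO1 (-0.77 ± 0.08; KO2 0.01). Of 15 mitotic genes, 3 fell and 2 rose in KO1, and 5 fell and 8 rose in KO2. AURKB fell in both clones (-0.42 ± 0.05 and -0.16 ± 0.05), TPX2 rose in KO2 (0.32 ± 0.04; KO1 0.08) and CCNB2 fell in KO2 (-0.38 ± 0.04; KO1 0.02).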

How the data were processed

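The deposited tables hold raw read counts per gene symbol, 1 table for each of 9 libraries, in whole numbers and without normalization, as the values show. Trim Galore and HISAT2, and the builds hg38, GRCm38 and mm10 without a role, are named per the submitters' processing notes. The sources used here do not give versions, the counter, its annotation or strand setting. RNA came from a column kit, with Illumina TruSeq libraries, per the labels' protocols.

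Counts were analysed in edgeR 4.0.16 (R 4.3.3) with filterByExpr, TMM and a robust quasi-likelihood fit of 1 mean per group over all 9 libraries. P-values were adjusted by Benjamini-Hochberg over 17759 genes, and called at under 0.05. Standard errors are the log2 change divided by the square root of F. The common biological coefficient of variation was 7.46%. No library repeated another of its group (chi-square of 5.85 to 28.7 per degree of freedom). The pipeline was tested on simulated data. Alternatives were DESeq2 1.42.0, limma-voom (limma 3.58.1), upper quartile scaling, other filters, fewer samples, a replicate block, removal of a GC trend (lowess, span 0.3) and each library left out.

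Positions, exon lengths and GC content came from GENCODE 29 (GRCh38), which held 55794 of 61155 symbols. Per-library values are given for members called in both clones, for the next 8 by difference between clones and for 7 checkpoint genes set by name. Other members are given by role and smallest p, and 3 genes per further list. The members and lists were chosen with earlier results of these data known.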

Additional observations from a re-analysis of the deposited data

Results flagged for a closer look

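The clones were tested against each other, which tests the difference between their changes from WT, and the test passed an adjusted p under 0.05 for 22 members, against 48.9% of all tested genes. As log2 differences of KO1 minus KO2, those higher in KO1 were TIPIN (1.499), ORC6 (0.46), RFC5 (0.44), CHEK1 (0.27), GMNN (0.22) and RPA2 (0.11). Those lower in KO1 by more than 0.25 were SMARCAL1 (-0.72), HUS1 (-0.68), RPA3 (-0.59), POLD2 (-0.50), ORC2 (-0.33), ATRIP (-0.29), WDHD1 (-0.27) and RFC2 (-0.27). Smaller differences were those of CDC6 (-0.22), ORC1 (-0.20), FEN1 (-0.19), TIMELESS (-0.17), CLSPN (-0.14), CDC25A (-0.14), MCM7 (-0.13) and POLA1 (-0.13). Of these, CDC25A lost its call without any 1 of the 9 libraries other than KO2 replicate 3 (-0.14 to -0.09) and POLA1 without any 1 other than KO2 replicate 2 (-0.14 to -0.10), and both lost it with no filter on low counts (-0.12 and -0.11) and in the fit of only the compared groups (-0.12 each). The call was also lost for MCM7 without KO1 replicate 3 (-0.10), KO2 replicate 1 (-0.12) or KO2 replicate 2 (-0.10), CLSPN without KO1 replicate 1 (-0.10) or KO2 replicate 1 (-0.12), RPA2 without KO1 replicate 3 (0.11), KO2 replicate 2 (0.11) or KO2 replicate 3 (0.09), and GMNN without KO2 replicate 3 (0.16). Those of MCM7 and CLSPN were lost with no filter on low counts (-0.11 and -0.12) and that of RPA2 with upper quartile scaling (0.08).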

How the results depend on the processing

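DESeq2, limma-voom, upper quartile scaling, other filters on low counts and fits of only the compared groups left the counts of members called up or down in each contrast, and of those down in both clones, within 1.5 times of those reported. Members up in both clones went from 2 to 1 in DESeq2, and members called in opposite directions from 2 to 1 in DESeq2, with no filter on low counts, in fits of only the compared groups and with a replicate block. Removal of the GC trend did not: members called down went from 20 to 35 in KO1 and from 16 to 27 in KO1 against KO2, and with a replicate block as well to 36 and 27, members down in both clones went from 9 to 14 with and without that block, and those called in opposite directions from 2 to 4 without it. The members had a median GC content of 45.14% where tested genes had 48.51%. The cause was not tested. Leaving out 1 library at a time gave 13 to 23 members down and 2 to 4 up in KO1, 12 to 18 down and 6 to 9 up in KO2, 11 to 22 down and 6 to 8 up averaged over both clones, and 12 to 17 down and 4 to 7 up in KO1 against KO2. It gave 6 to 10 members down in both clones, 0 to 2 up in both and 0 to 1 in opposite directions, with the lowest counts of falling members in KO1 (13) and in the average (11) without WT replicate 2. The replicate numbers did not pair the libraries, since deviations of same-numbered libraries had correlations of -0.618 to 0.588, and with a replicate block 20 members fell and 3 rose in KO1, 14 fell and 8 rose in KO2, and 8 fell in both, CDT1 (-0.76 in KO1) no longer among them. RFC1 averaged over both clones was at 0.00 and not called, and at -0.0587 and called with a replicate block and the GC trend removed. GMNN, POLE, POLE2, LIG1 and RAD9A were called down in both clones in all settings, and MCM7 in all but those with the GC trend removed.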

Other observations

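Libraries of different groups deviated together across genes, mostly not along their replicate numbers. The deviations from the group means of WT replicate 1 and KO1 replicate 2 had a Pearson r of 0.626, those of WT replicate 2 and KO1 replicate 1 of 0.692, and those of WT replicate 2 and KO2 replicate 2 of 0.588. CDT1 and POLD1 followed that order: WT replicate 2 was the highest WT library and KO1 replicate 2 the lowest KO1 library for each (33.6, 43.98 and 37.7 CPM of POLD1 in WT libraries, 31.3, 20.6 and 25.6 in KO1 and 28.1, 30.1 and 21.8 in KO2). RAD17 was lowest in WT replicate 1. The sources used here do not say what these libraries share.

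Processed pseudogenes of members held few counts. DBF4P1 had a mean of 14.4 counts per library beside 4769 for DBF4, and those of PCNA, RFC3, RFC5 and RAD17 had a mean of 0.0.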
